A study of Arabidopsis thaliana with 12 samples.

Results

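The transcripts of nearly ripe siliques of the Arabidopsis mutant *rdo2-1* were compared with those of its wild type, the accession L*er*. A silique is the seed pod, harvested here whole, with the maturing seeds inside, at 18 to 19 days after pollination. Of the 12 arrays in the study, 6 were used for the comparison, 3 labelled *rdo2* and 3 labelled wild type L*er*, and each array held 1 RNA sample. The other arrays, 3 of *rdo3* and 3 of *rdo4*, were used only to show where *rdo2-1* differed from other mutants. The *rdo4* arrays are those of the mutant that the paper calls *hub1-2*. The 3 mutants are in the L*er* background, as far as the labels and the paper give it, and all plants for transcript analysis were grown on soil in long days with no treatment. The replicates were independent and biological per the paper. Of the 22746 probe sets of the ATH1 array that are not controls, 14666 passed a filter on low values and were compared.

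The *REDUCED DORMANCY 2* gene encodes TFIIS, a transcription elongation factor. TFIIS binds RNA polymerase II that has stalled and backtracked on a gene, and stimulates the polymerase to cut its own transcript so that elongation can start again. The *rdo2-1* allele carries a small deletion near the end of the coding sequence, which affects the zinc finger of the protein, and the array comparison rests on this single allele. Freshly ripened seeds of L*er* are dormant and do not germinate until they have been stored dry, and the mutant was isolated because its fresh seeds germinate more readily. Dormancy is laid down in the embryo and seed coat while the seed fills with storage protein and oil and then dries. The comparison asks which transcripts differ in the mutant at the end of this phase.

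The deposited values are linear intensities without a physical unit, and differences are given here as log2 of *rdo2-1* over L*er*. A value near 12, the median of all probe sets on an array, was not shown to lie above background, so the size of a difference from or to such a value is uncertain. The *RDO2* gene itself was not analysed here, because no probe set could be named for it with the tables used, so the mutated gene was not checked. The array medians lay between 11.6 and 12.1 in all 12 arrays. Of 7 defining markers of the maturing embryo 1 was measured, the albumin gene *SESA1*, which gave 30836 to 32025 on the *rdo2-1* arrays and 30605 to 31144 on the L*er* arrays. Of 6 markers of the silique wall and valve margin 4 were measured, with summed values of 18168 to 20619 in *rdo2-1* and 14446 to 16489 in L*er*, which did not overlap. The 2 of 5 measured green tissue markers summed to 4772 to 7268 in *rdo2-1* and 4957 to 7540 in L*er*. Because siliques were used whole, fewer cells of a type and less RNA per cell cannot be told apart in any of the values below.

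The main test was limma, with Benjamini-Hochberg adjustment over the 14666 probe sets and calls under an adjusted p of 0.01. It called 21 probe sets, 0.143% of those tested, of which 12 were higher in *rdo2-1* (0.0818%) and 9 were lower (0.0614%). CyberT, the test with regularised variance that the study used, called 498 at the same threshold (3.4%), with 242 higher (1.65%) and 256 lower (1.75%). All 21 limma calls were among them. Centring each array on its median changed the CyberT split to 304 higher and 163 lower. At an adjusted p under 0.05, limma called 448 probe sets (3.05%), of which 222 were higher (1.51%) and 226 lower (1.54%), and 3137 had an unadjusted p under 0.05. The *rdo2-1* and L*er* arrays did not overlap at 3815 probe sets (26%). The median log2 difference of all probe sets was -0.01 and the median size of a difference was 0.22.

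The counts depended on single arrays. Without *rdo2-1* replicate 1, limma called 3 rises and 0 falls, and CyberT 90 rises and 104 falls. The limma counts were 10 and 3 when *rdo2-1* replicate 2 was left out, and 54 and 15 when *rdo2-1* replicate 3 was. Leaving out L*er* replicate 1 gave 3 and 0, L*er* replicate 2 gave 11 and 18, and L*er* replicate 3 gave 4 and 0. For CyberT, leaving out *rdo2-1* replicate 3 gave 358 rises and 436 falls, L*er* replicate 1 gave 106 and 75, and L*er* replicate 2 gave 344 and 582. All 21 limma calls kept their sign in each of these 6 fits, and 3 of them, *QQS*, AT4G03156 and AT5G13240, were called in every one. Another 5 were called in none of the 6, namely AT1G16950, AT3G30200, *RNEE/G*, AT4G27250 and a probe set without a single name.

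**Figure D1:**
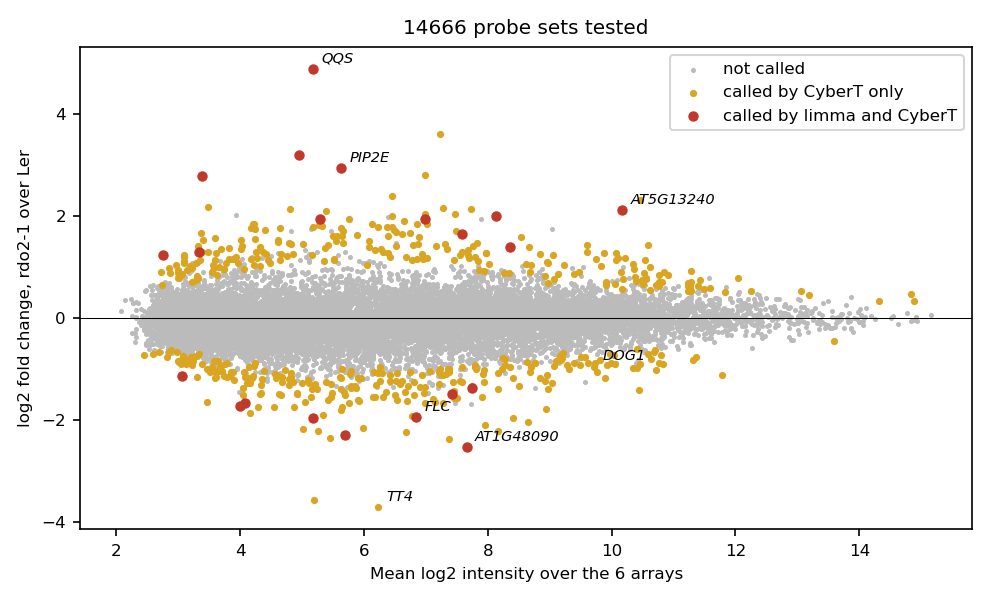
Log2 difference of *rdo2-1* over L*er* (y axis) against the mean log2 intensity of the 6 arrays (x axis) for the 14666 probe sets compared, with probe sets called by CyberT and by limma marked. The 12 rises and 9 falls called by limma are spread over low and middle intensities, with AT5G13240 the brightest, and most probe sets lie close to 0.

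Several of the called rises were transcripts at or near background in L*er*. *QQS*, a gene without relatives in other plants that is known to lower leaf starch, gave 179, 135 and 319.7 on the *rdo2-1* arrays and 6.14, 7.11 and 6.81 on the L*er* arrays. The *rdo3* and *rdo4* arrays gave 4.89 to 5.89, so that *QQS* stood above background only on the *rdo2-1* arrays. The difference was 4.89 ± 0.30 (log2, SE, limma adjusted p = 0.000218, n = 3 against 3).

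AT4G03156, a gene for which no role is given here, gave 30.1, 32.0 and 21.0 in *rdo2-1* and 4.21, 3.99 and 3.72 in L*er*. All 9 arrays of the other genotypes lay between 3.38 and 4.34, under the *rdo2-1* values. The difference was 2.78 ± 0.18 (log2, SE, limma adjusted p = 0.000218). Because L*er* was at background, the sizes for *QQS* and AT4G03156 are uncertain. The filter on low values asked for a second-highest value of at least 7.5 over the *rdo2-1*, *rdo4* and L*er* arrays. Both genes passed it only through the *rdo2-1* arrays. That they were high in *rdo2-1* alone was thus partly set by the filter, and a transcript present only in *rdo3* could not enter.

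*PIP2E*, which encodes a plasma membrane aquaporin, gave 117, 147 and 148 in *rdo2-1* and 13.7, 14.9 and 27.7 in L*er*. It was 17.3 to 21.4 in *rdo3* and 12.1 to 17.4 in *rdo4*, so none of the 9 other arrays approached the *rdo2-1* values. The difference of 2.94 ± 0.28 (log2, SE) had a limma adjusted p of 0.00341. Of the 5 measured aquaporin genes it was the single one called by either test, and the other 4 lay between -0.21 and 0.44. *PIP2E* lies on chromosome 2 within 100 annotated genes of *RDO2*, the mutated gene.

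*PRX52*, a class III peroxidase of the cell wall space, gave 154, 102 and 52.0 in *rdo2-1* and 9.83, 13.2 and 8.17 in L*er*. The groups did not overlap, and the difference was 3.20 ± 0.37 (log2, SE, limma adjusted p = 0.00858). *PRX52* was also raised in *rdo4*, at 68.1, 26.6 and 38.6 (limma adjusted p = 0.00394 against L*er*), whereas *rdo3* gave 15.4, 36 and 20.5. In *rdo2-1* against *rdo4* the difference was 1.18 (log2, adjusted p = 0.0519).

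Other called rises concerned transcripts that were clearly present in L*er*. AT5G13240 gave 2761, 2315 and 2193 in *rdo2-1* and 611, 487 and 568 in L*er*, a difference of 2.12 ± 0.14 (log2, SE, limma adjusted p = 0.000218). Its values were 561 to 606 in *rdo3* and 693 to 858 in *rdo4*, well apart from those of *rdo2-1*. *IRT3*, a plasma membrane transporter of zinc and iron, gave 381, 354 and 289 in *rdo2-1* and 99.9, 118 and 107 in L*er* (1.65 ± 0.18, log2, SE, limma adjusted p = 0.00589). The *rdo3* and *rdo4* arrays lay between 64.2 and 112, all under the lowest *rdo2-1* array.

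*FMO GS-OX3*, an enzyme that oxidises the sulfur of aliphatic glucosinolates, gave 716, 438 and 561 in *rdo2-1* and 142, 139 and 139.7 in L*er* (2.0 ± 0.20, log2, SE, limma adjusted p = 0.00341). AT1G16950, without a role given here, gave 593, 448 and 557 in *rdo2-1* and 220.1, 186 and 202 in L*er* (1.39 ± 0.17, log2, SE, limma adjusted p = 0.00858). At lower values, AT1G42705, annotated as a pseudogene and read by a probe set that may match related sequences, gave 15.2 to 16.6 in *rdo2-1* and 5.70 to 7.27 in L*er*. AT3G30200 gave 8.30 to 11.6 in *rdo2-1* and 4.20 to 4.60 in L*er*, with both groups at or under background. The *rdo4* arrays were higher than L*er* at both of these last genes, with a highest value of 57.7 for AT1G42705 and of 13.9 for AT3G30200. The remaining 2 called rises have no single gene name.

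Among the called falls, the floral repressor *FLC*, a MADS box factor that delays flowering, gave 56.7, 65.5 and 54.2 in *rdo2-1* and 215, 243 and 215 in L*er*. The *rdo3* arrays gave 225 to 240.1 and the *rdo4* arrays 361 to 433, so the 3 *rdo2-1* arrays were the lowest of the 12. *FLC* fell by 1.93 ± 0.18 (log2, SE, limma adjusted p = 0.0034).

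AT3G60070, annotated as related to lactose permease, gave 17.8, 18.7 and 18.8 in *rdo2-1* and 67.1, 73.0 and 73.8 in L*er*, with little spread in either group. It fell by 1.95 ± 0.18 (log2, SE, limma adjusted p = 0.0034) and lay at 55.1 to 89.9 in the other mutants. *VSR7*, a receptor that sorts proteins to the vacuole, gave 8.45, 8.61 and 9.20 in *rdo2-1* and 29.2, 22.4 and 36.9 in L*er* (limma adjusted p = 0.00858). The *rdo2-1* values of *VSR7* were at background, so its log2 difference of -1.72 ± 0.21 (SE) has an uncertain size. The *rdo4* arrays were intermediate, at 13.9 to 19.4.

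*PKP-BETA1* encodes a subunit of the plastid pyruvate kinase that supplies carbon for seed oil. It gave 128, 118 and 156 in *rdo2-1* and 360.1, 332 and 344 in L*er*, and fell by 1.37 ± 0.17 (log2, SE, limma adjusted p = 0.00977). In the other mutants it lay between 259.6 and 344, again apart from *rdo2-1*.

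AT4G27250, a gene of the dihydroflavonol reductase family, gave 35.9, 18.2 and 19.3 in *rdo2-1* and 119, 128 and 98.9 in L*er* (-2.30 ± 0.28, log2, SE, limma adjusted p = 0.00858). AT3G02750, a protein phosphatase of the PP2C family, gave 110.1, 91.2 and 109 in *rdo2-1* and 304, 259 and 302 in L*er* (-1.48 ± 0.17, log2, SE, limma adjusted p = 0.00858). AT1G48090, a very long gene whose product has a C2 domain, gave 66.4, 73.9 and 120.4 in *rdo2-1* and 623, 388 and 474 in L*er* (-2.53 ± 0.26, log2, SE, limma adjusted p = 0.00424). The last 2 called falls were weak signals. AT3G62550 gave 7.98 to 11.3 in *rdo2-1* and 25.6 to 34.2 in L*er*, and *RNEE/G*, an RNase E/G-like enzyme of the chloroplast, gave 5.21 to 6.39 in *rdo2-1* and 11.7 to 12.8 in L*er*. After the correction for the trend with gene span that is described further on, AT1G48090 differed by -1.21 (limma adjusted p = 0.0153) and *RNEE/G* by -0.77 (limma adjusted p = 0.0461), and both calls were lost. In all, 8 of the 21 calls had a group mean under the highest array median.

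**Figure D2:**
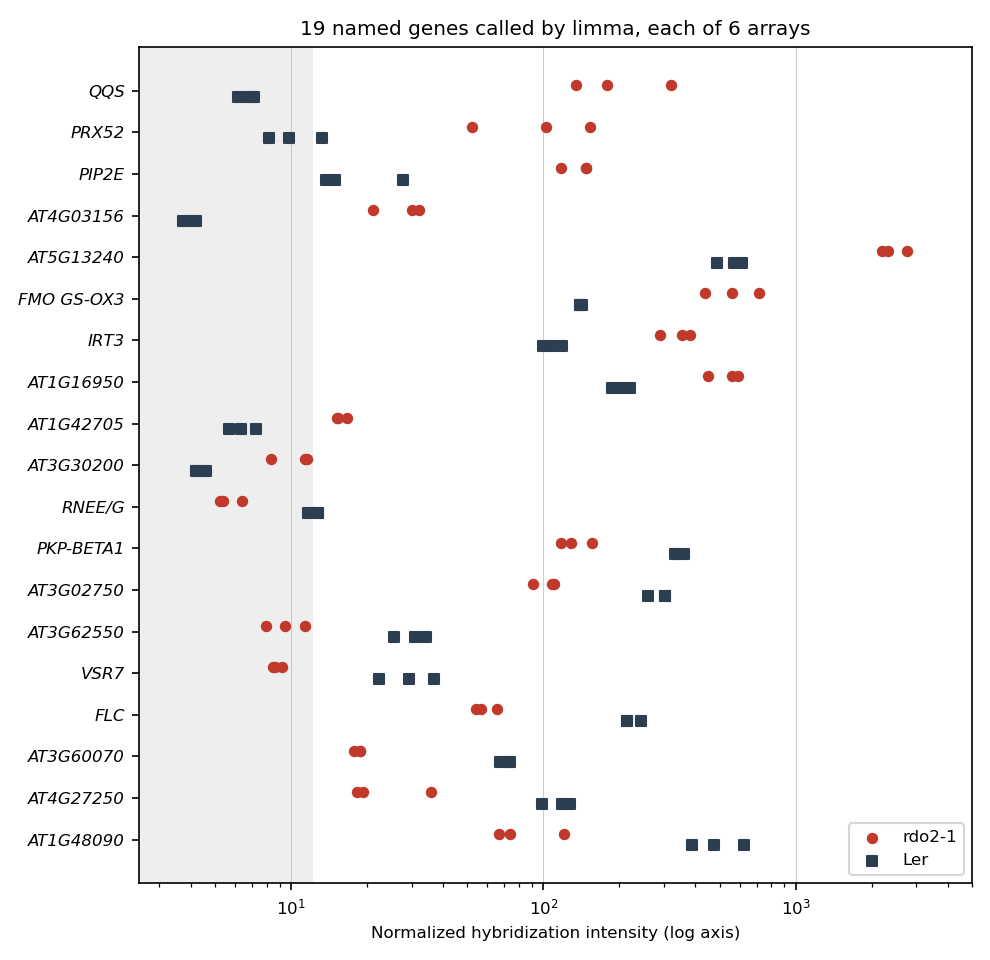
Intensity on a log axis of the 19 named genes called by limma, ordered by log2 difference, with 1 point per *rdo2-1* array (circles) and L*er* array (squares). The grey band marks values up to the highest array median, 12.1. The groups do not overlap for any of the 19 genes, and all L*er* points of *QQS* and all *rdo2-1* points of *VSR7* lie in the band.

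Genes were then grouped in 19 lists of known roles, of which 221 genes had a named probe set. Part of these names comes from the study's own table of changed genes, which was made on these samples, so a list with many such members holds genes chosen for being changed. The counts of the lists are thus not independent evidence of a direction. Such names made up 5 of the 7 measured flowering genes, 4 of 4 for abscisic acid and 4 of 8 for gibberellin. They were 6 of 14 for storage and 2 of 28 for late embryogenesis abundant genes. For stress they were 8 of 10 and for heat shock 8 of 15. For photosynthesis they were 19 of 30, for starch 4 of 8 and for aquaporins 5 of 5. The iron and zinc list had 4 of 7, the clock list 7 of 8 and the cell wall list 0 of 8. For the other lists the number is given below. CyberT called 3.4% of all probe sets, 2.97% of those named by the array annotation and 18.8% of those named through the study's table, and the counts are to be read against these shares. Some members that none of the tests called, and others that are not among the largest changes of their list, are named to show the range of a list, and were picked with their values known.

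Of the regulators of seed dormancy and maturation, 9 were measured, 5 of them named through that table. All 9 had a lower mean in *rdo2-1*, with a median log2 difference of -0.54, and CyberT called 2 falls while limma called 0. The 4 named by the array annotation had a median of -0.13, and CyberT called 0 of them. *DOG1*, a main determinant of how deep dormancy becomes, gave 712, 521 and 599 in *rdo2-1* and 1025, 1538 and 1016 in L*er*. The groups did not overlap, and *DOG1* differed by -0.95 ± 0.19 (log2, SE, limma adjusted p = 0.0353, CyberT adjusted p = 0.00231). *WRI1*, the activator of oil synthesis genes, gave 7.51 to 8.61 in *rdo2-1* and 10.8 to 14.9 in L*er*, near background (CyberT adjusted p = 0.00625). The other 7 members did not pass either test, among them the maturation regulator *FUS3* at -0.23 and the bZIP gene *EEL* at -0.54. The 2 CyberT falls became 1 without *rdo2-1* replicate 1 or without any one of the 3 L*er* arrays.

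Of the genes for transcription elongation, the PAF1 complex and histone H2B ubiquitination, 8 were measured, 6 named through the study's table, and neither test called any. Their median was -0.32, and the 2 named by the array annotation had a median of 0.07. *HUB1*, an E3 ligase that ubiquitinates histone H2B, gave 38.9, 36.6 and 48.3 in *rdo2-1* and 86.8, 80.9 and 67.8 in L*er*. These values did not overlap, but *HUB1* missed the threshold in both tests (-0.93 ± 0.21, log2, SE, limma adjusted p = 0.0464, CyberT adjusted p = 0.0147). Its partner *HUB2* differed by -0.15, and *ELF7*, a member of the PAF1 complex, by -0.23. The median gene span of this list was 6.09 kb. After correction for the trend with gene span described further on, its median was -0.03.

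Among 7 measured flowering time genes *FLC* was the single call, and its relatives *MAF1* and *MAF5* differed by 0.15 and -0.54. The florigen gene *FT* differed by -0.19. Of 4 genes of abscisic acid metabolism, *ABA3*, which makes the cofactor of the last synthetic enzyme, gave 175, 209 and 138 in *rdo2-1* and 381, 353 and 314 in L*er*. *ABA3* fell by 1.02 ± 0.19 (log2, SE) by CyberT (adjusted p = 0.00249) and not by limma (adjusted p = 0.0305). That call was lost when replicate 1 of either genotype was left out, and after correction for gene span, when *ABA3* differed by -0.63. *NCED3* and *CYP707A2*, for the synthesis and the breakdown of the hormone, differed by 0.55 and 0.72 and did not pass.

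Of 8 genes of gibberellin synthesis and response, *RGL3*, a DELLA repressor of the response, gave 45.4, 44.0 and 49.5 in *rdo2-1* and 154, 139 and 114 in L*er*. The *rdo3* and *rdo4* arrays gave 124 to 189, so the *rdo2-1* arrays stood apart from all others. *RGL3* fell by 1.54 ± 0.20 (log2, SE) by CyberT (adjusted p = 0.000349), with a limma adjusted p of 0.0107. The other DELLA gene measured, *GAI*, differed by -0.11, and the 3 gibberellin receptors *GID1A*, *GID1B* and *GID1C* by -0.36, 0.51 and -0.33, and none of these passed.

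Among the 19 lists, the one with the most called rises was that of the glucosinolates, sulfur-rich defence compounds that Arabidopsis stores in its seeds. Of 21 measured genes 19 had a higher mean in *rdo2-1*, with a median log2 difference of 0.95, and CyberT called 13 rises and 0 falls. limma called 1, *FMO GS-OX3*. Of the 21 members 14 were named through the study's table. The 7 named by the array annotation had a median of 0.56, with 5 higher, and 3 of them were called by CyberT.

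The called members act at several steps of the pathway. *MAM1*, which lengthens the side chain of the precursor methionine, gave 1868, 1388 and 2351 in *rdo2-1* and 1105, 720.2 and 1051 in L*er* (0.95 ± 0.22, log2, SE, CyberT adjusted p = 0.002). *BAT5*, a plastid carrier of chain elongation intermediates, gave 266, 124 and 323 in *rdo2-1* and 63.0, 54.0 and 68.5 in L*er* (1.84 ± 0.33, log2, SE, CyberT adjusted p = 0.000311). For both genes all *rdo2-1* arrays lay above all L*er* arrays.

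Within the core pathway, the C-S lyase gene *SUR1* gave 1642, 1400.0 and 1622 in *rdo2-1* and 868, 688 and 945 in L*er* (0.91 ± 0.15, log2, SE, CyberT adjusted p = 0.000608). *SOT18*, a sulfotransferase of the final step, gave 2335, 1890.0 and 2498 in *rdo2-1* and 1015, 1051 and 1279.8 in L*er* (1.00 ± 0.14, log2, SE, CyberT adjusted p = 0.000205). *GSTU20* and *GSTF11* are glutathione transferases whose genes are co-expressed with the aliphatic pathway. *GSTU20* gave 348, 187 and 568 in *rdo2-1* and 40.3, 38.2 and 70.5 in L*er*, and *GSTF11* gave 49.3 to 142 in *rdo2-1* and 18.2 to 22.8 in L*er*.

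The log2 differences were 2.80 ± 0.39 for *GSTU20* (SE, CyberT adjusted p = 1.7e-05, limma adjusted p = 0.0133) and 2.1 ± 0.34 for *GSTF11* (SE, CyberT adjusted p = 0.00016). *GSTU20* was also high in *rdo3*, at 263 to 489, and *rdo2-1* differed from *rdo3* by -0.07. *MYB28*, the main regulator of the aliphatic genes, gave 628, 395 and 613 in *rdo2-1* and 347, 306 and 419 in L*er*, which overlapped, and did not pass (0.59 ± 0.21, log2, SE, CyberT adjusted p = 0.0757). The cytochrome P450 gene *CYP83A1* (0.60) did not pass either, and the transporter genes *GTR1* and *GTR2* differed by 0.04 and -0.34. Replicate 2 gave the lowest value of its group for 19 of the 21 genes in *rdo2-1* and also for 19 of 21 in L*er*. Without *rdo2-1* replicate 1 the 13 CyberT calls became 8, and over the other arrays left out they ranged from 10 to 16.

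Among the 19 lists, the flavonoid list had the most called falls. Its genes make the pigments and tannins of the seed coat and the anthocyanins of green tissue. Of 15 measured, 14 had a lower mean in *rdo2-1*, with a median log2 difference of -1.20, and CyberT called 9 falls and 0 rises. limma called 0. The study's table named 9 of the 15. The 6 named by the array annotation had a median of -1.14, and CyberT called 3 of them. With a measure of labelling, the spike ratio described further on, as a covariate, the median of the 15 genes was -0.70.

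*TT4*, chalcone synthase, the first enzyme of the pathway, gave 11.2, 59.3 and 13.2 in *rdo2-1* and 375, 88.4 and 587 in L*er*. *F3H*, a following step, gave 63.5, 201 and 134 in *rdo2-1* and 516, 324 and 785 in L*er*. *DFR*, which leads to anthocyanins and tannins, gave 121, 370.0 and 115 in *rdo2-1* and 756, 434 and 906 in L*er*. For *TT4*, *F3H* and *DFR* the groups did not overlap, but *rdo2-1* replicate 2 was the highest of its group and L*er* replicate 2 the lowest.

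The log2 differences were -3.70 ± 0.74 for *TT4* (SE, CyberT adjusted p = 0.000168), -2.09 ± 0.42 for *F3H* (CyberT adjusted p = 0.000376) and -1.95 ± 0.43 for *DFR* (CyberT adjusted p = 0.00067). Their limma adjusted p-values were 0.035, 0.035 and 0.0443. *GSTF12*, which carries anthocyanins and tannin precursors to the vacuole and is the single seed coat marker measured of 5, gave 91.7, 335 and 77.7 in *rdo2-1* and 764, 275 and 1112 in L*er*. Here the groups overlapped, since *rdo2-1* replicate 2 was above L*er* replicate 2 (CyberT adjusted p = 0.00267). Over the 15 genes, replicate 2 was the highest array of *rdo2-1* for 10 and the lowest array of L*er* for 13. An overlap as for *GSTF12* was seen for AT4G14090, an anthocyanin glucosyltransferase, at 27.5, 148 and 26.1 in *rdo2-1* and 330.4, 83.6 and 391 in L*er*.

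*TT7*, flavonoid 3'-hydroxylase, gave 96.4, 104 and 143 in *rdo2-1* and 269, 206 and 343 in L*er*, with no overlap (-1.24 ± 0.24, log2, SE, CyberT adjusted p = 0.00294). *TT5*, chalcone isomerase, differed by -0.40 and did not pass. The 9 CyberT calls fell to 3 without *rdo2-1* replicate 1, to 6 without *rdo2-1* replicate 3, to 3 without L*er* replicate 1 and to 5 without L*er* replicate 3. The other mutants were low for several of the same genes, with *TT4* at 14.3 to 91.2 in *rdo3* and 7.81 to 15.3 in *rdo4*. Between *rdo2-1* and *rdo3* the difference of *TT4* did not pass (-1.05, limma adjusted p = 0.464).

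**Figure D3:**
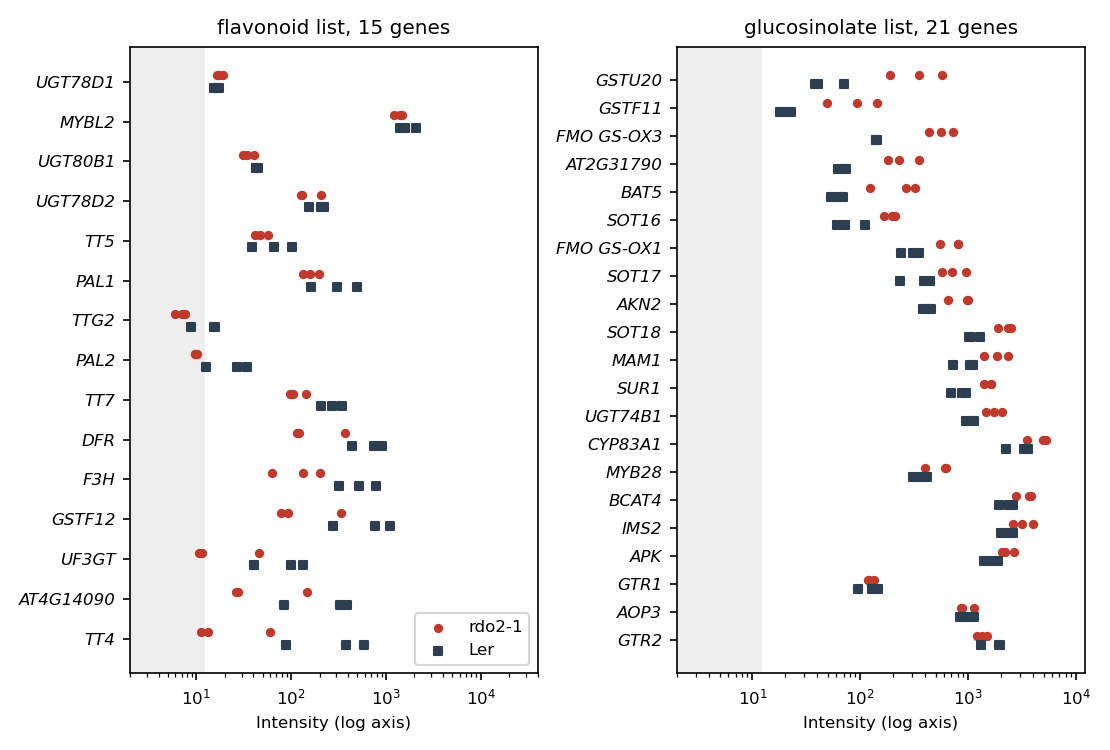
Intensity on a log axis of the 15 flavonoid and 21 glucosinolate genes measured, with 1 point per *rdo2-1* array (circles) and L*er* array (squares) and a grey band up to the highest array median. Of the glucosinolate genes 19 of 21, and of the flavonoid genes 1 of 15, had a higher mean in *rdo2-1*. For *TT4* and *DFR* 1 *rdo2-1* circle lies far to the right of the other 2, close to the lowest L*er* square.

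Storage genes gave calls in both directions. Of 14 measured genes for storage proteins, oil bodies and their lipids, CyberT called 3 rises and 2 falls, and the median was -0.07. *SESA4*, an albumin gene, gave 34759.5, 32733 and 35393 in *rdo2-1* and 20953, 26392 and 27578 in L*er*, a difference of 0.47 ± 0.10 (log2, SE, CyberT adjusted p = 0.00128). The albumin genes *SESA2* and *SESA5* rose by 0.34 and 0.33 on the log2 scale by the same test, whereas *SESA1* differed by 0.01. Of these 3 rises 1 was left when replicate 1 of either genotype was omitted and 1 after quantile normalization. After correction for gene span none was called, with differences of 0.31 for *SESA4*, 0.19 for *SESA2* and 0.19 for *SESA5*. The 2 falls of the list were lost without *rdo2-1* replicate 1, and also without *rdo2-1* replicate 2.

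*KCS18*, which lengthens fatty acids to the very long chains of seed oil, gave 259, 117 and 397 in *rdo2-1* and 441, 682 and 621 in L*er*. It fell by 1.32 ± 0.38 (log2, SE, CyberT adjusted p = 0.00566), with a limma adjusted p of 0.091. *OLEO3*, an oil body protein, gave 1045 to 1443 in *rdo2-1* and 1802 to 1898 in L*er* and missed the threshold (-0.63, CyberT adjusted p = 0.013). In plastid glycolysis and fatty acid synthesis, 8 of 10 measured genes were lower, with a median of -0.53, and CyberT called *PKP-BETA1* and *WRI1*. The fall of *WRI1*, near background, is the same one that was counted above among the regulators of seed dormancy and maturation. *CAC2*, the biotin carboxylase subunit of acetyl-CoA carboxylase, gave 44.1, 48.6 and 89.7 in *rdo2-1* and 118 to 124 in L*er*, and was just outside (-1.06, CyberT adjusted p = 0.011). Of these 10 genes 8 were named through the study's table. The 2 named by the array annotation had a median of -0.13, with 1 higher and 1 lower, and CyberT called 0 of them. When replicate 1 of either genotype was omitted, 1 of the 2 calls was left.

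Among 28 late embryogenesis abundant genes, whose hydrophilic products protect drying cells, the median was 0.06 and CyberT called 3 rises. *COR47*, a dehydrin, gave 95, 65.8 and 61.1 in *rdo2-1* and 15.4, 29.1 and 19.4 in L*er* (1.82 ± 0.28, log2, SE, CyberT adjusted p = 0.00021). *M17* gave 950.3 to 2002 in *rdo2-1* and 218 to 907 in L*er*. The 3 rises became 1 without *rdo2-1* replicate 1, and 2 rises stood beside 2 falls without *rdo2-1* replicate 2 and after correction for gene span. The median changed sign in 3 of 22 alternatives. Of 10 genes of dehydration, cold and oxidative stress, *HB-12*, a homeobox gene induced by water deficit, gave 2739, 2240.4 and 2086 in *rdo2-1* and 1149, 1339 and 1419 in L*er* (0.85 ± 0.14, log2, SE, CyberT adjusted p = 0.000731). *STS*, which makes the raffinose family sugar stachyose, gave 42.2 to 84.7 in *rdo2-1* and 106 to 186 in L*er*, and fell by 1.5 ± 0.32 (log2, SE, CyberT adjusted p = 0.00154). The fall of *STS* was lost when replicate 1 of either genotype was omitted. Of 15 heat shock genes the chaperone gene *HSP101* was the single call, at 1187 to 1488 in *rdo2-1* and 1892 to 2853 in L*er*, and that call was lost when replicate 1 of either genotype was left out.

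The silique wall genes were higher as a group in value. All 7 measured genes of silique maturation and opening had a higher mean in *rdo2-1*, with a median of 0.76, 4 of them named through the study's table. CyberT called 3 of the 7, and 0 of the 3 named by the array annotation, whose median was 0.90. *NAP*, a NAC factor that promotes senescence, gave 399.7, 296 and 324 in *rdo2-1* and 213, 185 and 141 in L*er* (CyberT adjusted p = 0.00632). *NAC6*, a related factor of ageing tissue, gave 1669.9 to 2206 in *rdo2-1* and 1067 to 1277 in L*er* (CyberT adjusted p = 0.00187). *PGAZAT*, a polygalacturonase of separating cells, gave 2904 to 3814 in *rdo2-1* and 1899 to 2365 in L*er* (CyberT adjusted p = 0.00536).

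For *NAP*, *NAC6* and *PGAZAT* the groups did not overlap. The sum of the 4 silique wall markers given above is not separate from this, since it holds *PGAZAT*, and most of it is *ADPG1*, at 14877 to 16418 in *rdo2-1* and 11909 to 13856 in L*er*. The marker *SHP2* gave 230.5 to 262 in *rdo2-1* and 211 to 238 in L*er*, which overlapped. Whether the pods were of the same ripeness was not tested. *ALC*, which specifies the separation layer, gave 64.3 to 136 in *rdo2-1* and 40.2 to 56.3 in L*er*, and missed the threshold (1.09, CyberT adjusted p = 0.021). The count was 0 when replicate 1 of either genotype was left out, and 1 when L*er* replicate 3 was. Of 30 photosynthesis genes 22 were higher, with a median of 0.27, but neither test called any, and the arrays were separate for 0 of the 30, against 26% of all probe sets.

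In starch metabolism 8 genes were measured. Beside the rise of *QQS*, CyberT called falls of *AMY3*, a plastid alpha-amylase, at 8.88, 8.49 and 11.7 in *rdo2-1* and 20.9, 19.1 and 23.4 in L*er* (adjusted p = 0.00147), and of the branching enzyme gene *SBE2.1*, at 8.89 to 10.2 in *rdo2-1* and 14.9 to 18.7 in L*er*. Both *rdo2-1* groups were at background, and of these 2 falls 0 were called without L*er* replicate 1. Of 7 genes for iron and zinc, the zinc transporter gene *ZIP1* rose beside *IRT3*, at 134, 55.4 and 89.4 in *rdo2-1* and 27.1, 29.3 and 29.0 in L*er* (1.62 ± 0.30, log2, SE, CyberT adjusted p = 0.00107). The other 5 lay between -0.15 and 0.11. Without *rdo2-1* replicate 1 the call of *ZIP1* or *IRT3* fell to 1 of the 2.

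Of 8 clock genes, 2 that are expressed late in the day fell by CyberT. *PRR3* gave 47.6, 49.6 and 52.0 in *rdo2-1* and 133, 166 and 113 in L*er* (-1.45 ± 0.21, log2, SE, adjusted p = 0.000349). *GI* gave 74.6, 102 and 161 in *rdo2-1* and 357, 213 and 307 in L*er* (-1.42 ± 0.30, log2, SE, adjusted p = 0.00154). The groups did not overlap for either gene, and 1 of the 2 falls was left when replicate 1 of either genotype was omitted. The morning genes *LHY* and *CCA1* differed by 0.68 and 0.24, and did not pass. No source used here gives the time of day of each harvest. Of 8 measured cell wall genes neither test called any, and their median was 0.26.

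**Figure D4:**
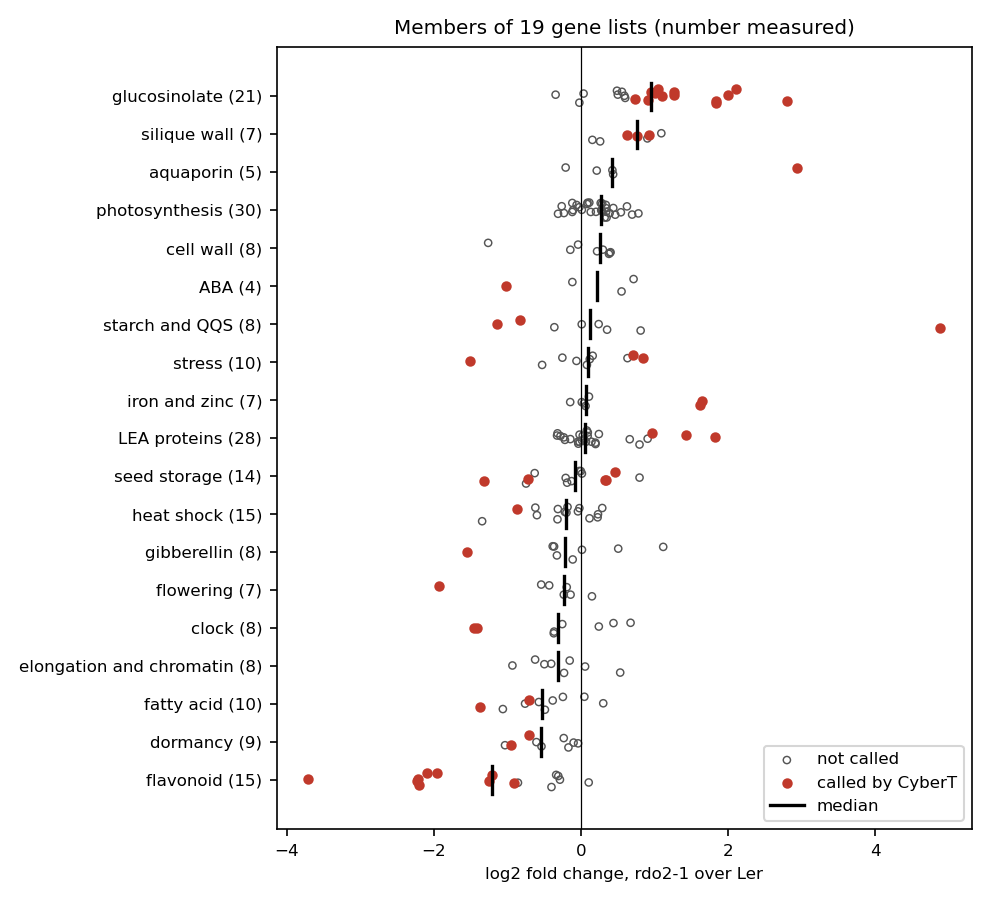
Log2 difference of *rdo2-1* over L*er* for each measured gene of the 19 lists, with CyberT calls marked and a line at each list's median. The medians run from -1.20 for the flavonoid genes to 0.95 for the glucosinolate genes, against -0.01 for all probe sets.

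Among the brighter probe sets with 1 gene name, the largest CyberT rises outside these lists included the following genes. They are placed together mostly by what they encode and not by any test. The lipid transfer protein genes *LTP3* and *LTP4*, which lie side by side and are closely related, varied widely between arrays. *LTP3* gave 822, 174 and 1013 in *rdo2-1* and 11.2, 48.5 and 146 in L*er* (3.61 ± 0.87, log2, SE, CyberT adjusted p = 0.000749, limma adjusted p = 0.058). *LTP4* gave 4512, 1385 and 5006 in *rdo2-1* and 219, 795 and 1444 in L*er*, so that its groups overlapped.

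Some others encode enzymes of pectin or belong to a family of their inhibitors, although of the 8 cell wall genes listed above none was called. AT3G07820, a polygalacturonase gene, gave 483, 665 and 269 in *rdo2-1* and 98.7, 87.6 and 117 in L*er* (2.14 ± 0.30, log2, SE, CyberT adjusted p = 3.34e-05). AT2G47050, of the pectin methylesterase inhibitor family, gave 261, 377 and 84.1 in *rdo2-1* and 31.9, 38.8 and 45.0 in L*er*. *PGA4*, a polygalacturonase gene of pollen, gave 351, 399.8 and 121 in *rdo2-1* and 55.9 to 68.4 in L*er*. *sks13*, annotated as a multi-copper oxidase and not as a pectin enzyme, gave 93.6 to 290.4 in *rdo2-1* and 47.3 to 59.8 in L*er*. With *sks13* included, *rdo2-1* replicate 3 was the lowest of its group for all 4 genes. These transcripts also varied strongly within the other mutants. *PGA4* gave 40.0, 70.1 and 164 in *rdo3* and 253, 20.3 and 93.4 in *rdo4*, and AT2G47050 gave 20.8, 51.9 and 145 in *rdo3* and 195, 13.4 and 46.7 in *rdo4*. The highest array of each of these mutants was thus well above L*er* and the lowest below it. The cause of this spread was not tested.

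*GH3.3* and *DFL1* encode enzymes that conjugate auxin to amino acids. *GH3.3* gave 147, 207 and 175 in *rdo2-1* and 50.8, 59.8 and 27.5 in L*er* (2.0 ± 0.29, log2, SE, CyberT adjusted p = 0.000105). *DFL1* gave 378, 406 and 299.5 in *rdo2-1* and 80.1, 145 and 56.6 in L*er* (2.04 ± 0.31, log2, SE, CyberT adjusted p = 0.000117). Both were apart from L*er* on every array, and *DFL1* was also high in *rdo3*, at 219 to 456, and in *rdo4*, at 316 to 621. *MAPKKK17*, a protein kinase of abscisic acid signalling, gave 357, 429.7 and 230.0 in *rdo2-1* and 80.9, 194 and 24.9 in L*er*.

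The largest CyberT falls outside the lists included *AAP2*, an amino acid transporter of the phloem, at 196, 103 and 382 in *rdo2-1* and 781, 637 and 1073 in L*er* (-2.04 ± 0.40, log2, SE, CyberT adjusted p = 0.000349). AT4G28260 gave 261, 395 and 180.4 in *rdo2-1* and 1079.6, 905 and 780.4 in L*er*, and lay at 859 to 1153 in the other mutants, so that the 3 *rdo2-1* arrays were the lowest of 12. *DML1*, also known as *ROS1*, a DNA glycosylase that removes methylated cytosine, gave 44.7, 65.0 and 70.8 in *rdo2-1* and 244, 112 and 218 in L*er* (-1.62 ± 0.31, log2, SE, CyberT adjusted p = 0.000925). It was also low in *rdo4*, at 60.2 to 68.2. The transporter gene *ABCG34* and the metalloreductase gene *FRO8* each fell by 1.66 on the log2 scale.

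The values showed a trend with the length of the gene, which was noticed after results were seen. The span of a gene here is the distance between its annotated ends, introns included. Among probe sets named by the array annotation, the median log2 difference was 0.15 for the 674 genes spanning under 1 kb, and became lower with each longer class. It was -0.44 for the 181 genes of 6 to 8 kb, -0.57 for the 62 of 8 to 10 kb and -0.83 for the 36 over 10 kb, of which 31 were lower in *rdo2-1*. CyberT called 30.6% of the genes over 10 kb lower, against 1.75% of all probe sets. With the names from the study's table of changed genes included, 65 of 233 CyberT falls spanned at least 6 kb, against 1 of 215 rises, AT3G30200. With these names the median span was 1.66 kb for the rises, 3.48 kb for the falls and 2.31 kb for all named genes. Of the 9113 probe sets with 1 name, 227 spanned 6 to 8 kb, 81 spanned 8 to 10 kb and 56 over 10 kb. By the array annotation alone, the falls in these classes were 11, 7 and 11, and the rises 1, 0 and 0.

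Examples among the falls of at least 10 kb, chosen after their values were seen, are kinases and enzymes of basic functions. *ATM*, the kinase that signals broken DNA, with a span of 27.3 kb, gave 12.8, 28.6 and 24.3 in *rdo2-1* and 75.4, 62.6 and 47.5 in L*er* (-1.55 ± 0.32, log2, SE, CyberT adjusted p = 0.00178). *TOR*, the kinase that ties growth to nutrients, with 17.7 kb, gave 22.2, 27.5 and 49.2 in *rdo2-1* and 100.5, 61.2 and 97.5 in L*er* (-1.44 ± 0.32, log2, SE, CyberT adjusted p = 0.00269). *GSL12*, a callose synthase of 11.3 kb, gave 73.4, 130.3 and 111 in *rdo2-1* and 365, 255 and 290.5 in L*er*. *ACC1*, the cytosolic acetyl-CoA carboxylase, of 10.8 kb, gave 64.6 to 109 in *rdo2-1* and 147 to 338 in L*er*. For all 4 the *rdo2-1* and L*er* arrays did not overlap. All 4 were named through the study's table, so they come from genes chosen for being changed in these samples. After correction for the trend with span, *ATM* differed by -0.21, *TOR* by -0.38, *GSL12* by -0.80 and *ACC1* by -0.85.

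Within each array, the median deviation of long genes (at least 6 kb, 279 genes) minus that of short genes (under 2 kb, 3169 genes) was -0.68, -0.42 and -0.20 in *rdo2-1* and 0.36, -0.12 and 0.21 in L*er*. These values did not overlap, and the difference of -0.59 gave a two-sided exact permutation p of 0.1, the smallest that 3 arrays against 3 allow. The *rdo3* arrays gave -0.35, 0.28 and -0.19, which overlapped with *rdo2-1* (difference -0.35, exact permutation p = 0.2). The *rdo4* arrays gave 0.27, 0.42 and 0.43 (difference -0.81, exact permutation p = 0.1). When the genes were split into 3 classes by their mean level, long genes had medians of -0.28, -0.74 and -0.53 and short genes 0.09, 0.10 and 0.10, from the lowest to the highest level.

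ATH1 arrays label RNA from the 3' end, and the ratio of 3' to 5' signal gives a measure of labelling. For 3 spiked transcripts, whose 3' and 5' ends have probe sets of their own, log2 of 3' over 5' was 0.66, 0.72 and 0.38 in *rdo2-1* and 1.14, 0.50 and 1.14 in L*er*. The groups overlapped through L*er* replicate 2 (exact permutation p = 0.3). This array was also the lowest of L*er* for long minus short genes, at -0.12. In *rdo2-1*, replicate 3 had the lowest ratio and the highest long minus short value, -0.20. The group means of both measures had the same order, from *rdo2-1* over *rdo3* and L*er* to *rdo4*. The relation between the measures was not tested. The spike ratio of *rdo2-1* did not overlap with that of *rdo3*, at 0.74 to 0.93 (exact permutation p = 0.1). Nor did it overlap with that of *rdo4*, at 0.92 to 1.13 (exact permutation p = 0.1). The part of labelling in the differences from these mutants was not tested. The same ratio for actin was 0.61, 0.96 and 1.05 in *rdo2-1* and 1.46, 1.01 and 1.44 in L*er* (exact permutation p = 0.2). For GAPDH it was 0.10, 0.36 and 0.27 in *rdo2-1* and 0.29, 0.23 and 0.37 in L*er*. A spike left out of the mean for its weak signal, *thr*, gave 0.94, 1.12 and 0.92 in *rdo2-1* and 1.42, 0.72 and 3.61 in L*er*. For all of these ratios *rdo2-1* thus overlapped with L*er*. For actin and GAPDH it also overlapped with *rdo3* and with *rdo4*. With the spike ratio as a covariate in a fit of all 12 arrays, the medians of the 3 longest classes were -0.28, -0.45 and -0.63, and *FLC* still fell by 1.98 on the log2 scale (limma adjusted p = 0.000158). Of the 19 named limma calls 13 were under the threshold in that fit, against 16 in the fit of 12 arrays without the ratio. With the ratio, those not under it were *PRX52*, *FMO GS-OX3* (limma adjusted p = 0.0707), AT1G16950, AT1G42705, AT3G62550 and *RNEE/G*. After correction for the trend with span, 17 of the 19 were under the threshold, all but AT1G48090 and *RNEE/G*. *FLC*, with a span of 6.07 kb, then differed by -1.55 (limma adjusted p = 0.00822).

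**Figure D5:**
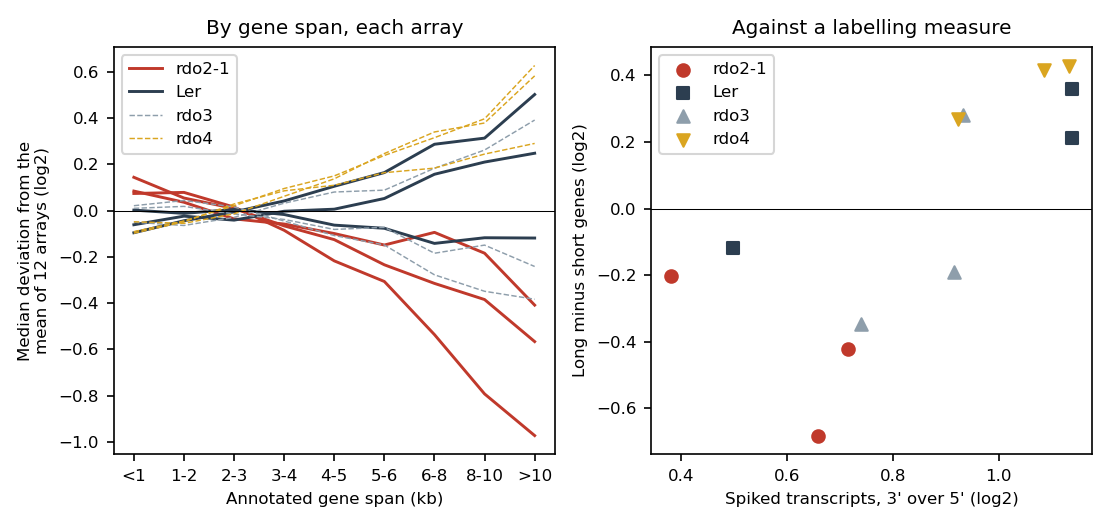
Left, median deviation from the mean of the 12 arrays (log2) by class of gene span (kb), with 1 line per array. Right, long minus short genes (log2) against the 3' over 5' ratio of the spiked transcripts (log2), with 1 point per array. The *rdo2-1* lines go down with span, and the 3 *rdo2-1* points, from -0.68 to -0.20, lie below the L*er* points but overlap with *rdo3*. The group means have the same order on both axes of the right panel, with *rdo2-1* lowest and *rdo4* highest.

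Set against *rdo3*, another line named for reduced dormancy, limma called 37 probe sets in *rdo2-1* (0.252%), 18 higher (0.123%) and 19 lower (0.13%). This count was 9 without *rdo2-1* replicate 1, 15 without *rdo2-1* replicate 3, 23 without *rdo3* replicate 1 and 13 without *rdo3* replicate 3. The comparison uses the same *rdo2-1* arrays as that with L*er*, so the calls of both are not independent. Of the 21 calls against L*er*, 10 were called against *rdo3* in the same direction. *QQS* was higher by 5.1, *PIP2E* by 2.81, AT4G03156 by 2.73, *IRT3* by 2.12 and AT5G13240 by 2.04 on the log2 scale, and *FLC* was lower, at -2.0. *RGL3* (-1.76, limma adjusted p = 0.00515) and *PRR3* (-1.37, limma adjusted p = 0.00787) passed against *rdo3* as well.

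A few further differences from *rdo3* were chosen after their values were seen. *UGT76B1*, a glucosyltransferase that acts on defence signals, gave 343, 307 and 218 in *rdo2-1* and 1488 to 1805 in *rdo3*, with 483 to 711 in L*er* (-2.57 against *rdo3*, log2, limma adjusted p = 0.000384). *EDS16*, isochorismate synthase of the salicylic acid pathway, gave 202, 181 and 153 in *rdo2-1* and 469.5 to 562 in *rdo3*, with 340.4 to 558 in L*er* (-1.56, log2, limma adjusted p = 0.00317). *GH3.17*, an enzyme that conjugates auxin, gave 103 to 135 in *rdo2-1* and 474 to 698 in *rdo3*, with 195 to 283 in L*er*. AT1G10585 gave 18.8 to 32.7 in *rdo2-1* and 400.0 to 693 in *rdo3*, with 40.6 to 66.2 in L*er*. For *EDS16* the *rdo3* and L*er* arrays overlapped, whereas for the other genes *rdo2-1* lay below L*er* and L*er* below *rdo3*. CyberT called all 4 of them lower in *rdo2-1* against L*er*.

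Set against *rdo4*, limma called 2867 probe sets in *rdo2-1* (19.5%), 1120 higher (7.64%) and 1747 lower (11.9%). Leaving out single arrays changed this most without *rdo4* replicate 3, to 1120, and without *rdo2-1* replicate 1 it was 1615. Without *rdo4* replicate 1 it was 1521 and without *rdo4* replicate 2 it was 1243. *DOG1* was higher in *rdo2-1* than in *rdo4*, whose arrays gave 203, 204 and 206 (1.57, log2, limma adjusted p = 0.000157). *HUB1* gave 160.4, 169 and 212 in *rdo4*, above both *rdo2-1* and L*er*. *FLC* differed by -2.80 and *RGL3* by -1.85 (log2, limma adjusted p = 2.62e-05 and 8.85e-05). Of the 21 glucosinolate genes limma called 16 higher in *rdo2-1* than in *rdo4*, against 7.64% of all probe sets, and 0 higher than in *rdo3*. Of the 21, 14 were named through the study's table, which also lists genes changed in *rdo4*. Other lists were as one-sided against *rdo4*. Of 30 photosynthesis genes 14 were called higher in *rdo2-1* and 0 lower, and of 15 heat shock genes 13 were called lower and 0 higher. Of the 21 calls against L*er*, 17 were called against *rdo4* in the same direction and 1 in the opposite direction. Both comparisons use the same *rdo2-1* arrays, so these calls are not independent either.

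The named *rdo2-1* calls were not gathered on 1 chromosome. CyberT called 4.93% of all probe sets with 1 gene name. Of 2375 such probe sets on chromosome 1 it called 61 higher and 64 lower. Of 1413 on chromosome 2, where *RDO2* lies, it called 32 and 37. The counts were 42 and 35 of 1855 on chromosome 3 and 24 and 42 of 1316 on chromosome 4. On chromosome 5 they were 56 and 55 of 2149. Among the 250 annotated genes on each side of *RDO2*, 157 had a named probe set, and CyberT called 5 higher and 8 lower, or 8.28%, against 4.87% of named probe sets elsewhere. Among the nearest 100 on each side it called 3 higher and 1 lower of 69, or 5.8%, against 4.92% elsewhere. limma called 1 of these 69, *PIP2E*, against 19 of all 9113 probe sets with 1 gene name. Whether these shares differ was not tested.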

How the data were processed

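RNA from whole siliques was hybridized to Affymetrix ATH1 arrays. The authors applied GC-RMA for background correction, normalization and summarization in Expressionist Pro, and the deposited values are linear intensities, 22810 per array. No source used here says which of them entered 1 normalization. Every column was used. Groups follow the genotype that the labels give. The members, lists and tests were chosen with earlier results of these data known.

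Controls (64 probe sets) were dropped. Probe sets were kept where the second-highest value was at least 7.5 among the 9 arrays of *rdo2-1*, *rdo4* and L*er*. This stands in for the study's filter on detection. log2 intensities were compared in limma 3.58.1 (R 4.3.3) over the 6 arrays of each comparison, with a prior spread that follows intensity, and in CyberT (window 101, prior weight 10), both checked on simulated data. P-values are Benjamini-Hochberg adjusted over 14666 probe sets. With 3 arrays per group the precision is limited, and the median SE of a log2 difference was 0.19. Names came from the array annotation for 7988 probe sets and from the study's table of genes changed in these samples for 1125, and 5553 were left without 1 name. Where a gene has several probe sets, the brightest was used in lists. Of 625 listed genes 221 were measured. Gene spans are those of the RefSeq table of assembly TAIR 10.1. Named genes are all limma calls with 1 name, the 15 largest CyberT rises and falls above the median intensity, genes the paper names, and the called and brightest members of each list, from which those described were taken. Further list members, and genes marked as such, are outside the rule and were picked with their values known. *RDO2*, *VIP4*, *VIP5*, *ELF8* and *ACT8* were not analysed here. Sequences are not given, as no table used here holds them. Filters, thresholds, scaling, the prior, the arrays in the fit, a pseudocount of 16, probe sets of several genes, a block for the replicate number and the omission of each replicate served as alternatives. Lists and plots were made in Python 3.11.15 with matplotlib 3.10.9, NumPy 2.4.6 and pandas 2.3.3.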

Additional observations from a re-analysis of the deposited data

How the results depend on the processing

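The limma count against L*er* was 12 rises and 9 falls, and depended strongly on the test. CyberT gave 242 and 256, a threshold of 0.05 gave 222 and 226, and a t-test without regularised variance gave 330 and 331 unadjusted and 0 and 0 adjusted. A filter at the median of all probe sets gave 6 and 3, a constant prior 7 and 2, a fit of 9 arrays 63 and 81, and one of 12 arrays 123 and 146. Median centring gave 28 rises. Among named probe sets the counts were 22 and 22, or 25 and 22 after span correction. The spike covariate, in a fit of 12 arrays, gave 27 and 47, against the 123 and 146 of that fit without it. With each replicate left out in turn, the rises ranged from 3 to 54 and the falls from 0 to 18. The CyberT counts of 242 and 256 became 541 and 702 at 0.05, and the falls 163 after median centring. With each replicate left out they ranged from 90 to 358 rises and from 75 to 582 falls.

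The 37 calls against *rdo3* became 417 by CyberT, 323 at 0.05, 682 by the plain t-test unadjusted and 1 adjusted, and 232 in a fit of 12 arrays, with a range of 9 to 28 over replicates left out. The 2867 calls against *rdo4* became 5466 at 0.05 and 18 by the plain t-test adjusted, with a range of 1120 to 2976 over replicates left out. The long gene difference of -0.59 was -0.33 with no filter, and -0.73 to -0.47 over replicates left out. Of the named genes, *SDG25* (0.06) ranged from -0.20 to 0.33 over replicates left out, below 0 when *rdo2-1* replicate 3 or L*er* replicate 2 (-0.04) was omitted, and *ELF7* (-0.23) was 0.16 with the spike covariate. The photosynthesis median of 0.27 was -0.11 without *rdo2-1* replicate 3. Apart from settings that leave out samples or probe sets or move the threshold, the cause of these changes was not tested.

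With the replicate number as a block, limma called 107 rises and 78 falls against L*er* and 87 probe sets against *rdo3*. Deviations from the group means were correlated between *rdo2-1* and L*er* arrays, and gave -0.09, 0.26 and 0.39 for those of the same number. Replicates 2 and 3 of *rdo2-1* correlated best with the L*er* array of the same number. Replicate 1 of *rdo2-1* correlated best with L*er* replicate 2, at 0.05. The numbers were not taken to pair the samples, and whether they do was not tested. Weak signals limit the folds of genes near an intensity of 12, and 3 arrays per group limit what could be called.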
